A study of Mus musculus with 12 samples.

Results

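Microglia genes are described here as a set of 34 named genes in the hypothalamus, taken by symbol from a table of 32494 genes in 12 RNA sequencing libraries. All 34 were found in the table. By role, 11 are genes of resting microglia, 12 are expressed by microglia in either state and by other myeloid cells, 10 are linked to activation, and Mrc1 is a gene of border macrophages. The libraries came from male mice with floxed Smc3, all treated with tamoxifen, and represent the time point 5 weeks later. An age of 8 weeks is given without the step it refers to. The 7 libraries labelled WT had the genotype Camk2a-cre/ERT2- (Cre-), and the 5 labelled cKO the genotype Camk2a-cre/ERT2+ (Cre+). Camk2a drives the tamoxifen-activated recombinase in excitatory neurons of the forebrain, so microglia are not the cells in which Smc3 was to be deleted. Every title in both groups also has the word control. The study's title asks how Smc3 in forebrain neurons, a core subunit of the cohesin ring, bears on weight and metabolism.

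Microglia are the resident macrophages of the brain. Their survival depends on the receptor Csf1r and its ligands Csf1 and Il34, and their identity on transforming growth factor beta signalling and on transcription factors such as Spi1 (PU.1), Irf8 and Sall1. Resting microglia survey the tissue with purine receptors and the fractalkine receptor Cx3cr1. In injury and disease they lower many of these genes and, through Trem2 and Tyrobp, raise genes of lysosomes, lipid handling and antigen presentation.

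Depth was 17.1 to 24.0 M reads (M, megareads) in 11 libraries and 68.7 M in WT 1. The values are CPM, reads scaled to a common library total, and 3 reads came to 0.0436 to 0.178 CPM, a floor that covers counting error only. The floxed gene went against the labels: Smc3 was at 76.8 to 85.7 CPM in the libraries labelled WT and at 116 to 144 CPM in those labelled cKO, so every direction below refers to labels. Of the 12 hypothalamic neuron markers, 11 reached a mean of 1 CPM over all libraries, and Rax did not. WT 4, WT 5, cKO 12 and cKO 13 stood apart, with the lowest hypothalamic marker means (2.03 to 2.72 on the log2 scale, against 2.91 to 3.76 elsewhere) and the highest oligodendrocyte marker means (8.30 to 8.54, against 7.35 to 8.05). In them the hypothalamic gene Fezf1 was at 0.0493 to 0.95 CPM and Otp at 11.8 to 25.2 CPM, against 3.16 to 14.9 and 34.4 to 106 CPM in the other 8. The myelin gene Mbp was at 3690 to 4330 CPM in them and 1730 to 3030 CPM in the others. All 10 thalamic neuron markers reached the minimum as well, with a summed level of 1507 to 2391 CPM in the libraries labelled WT and 1160 to 1594 CPM in those labelled cKO. Blood leukocyte markers were near 0, at 0.356 to 1.20 CPM in the libraries labelled WT and 0.710 to 1.17 CPM in those labelled cKO, summed over 13 genes. In bulk tissue, fewer cells of a type and less RNA per cell cannot be told apart.

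The levels of the microglia genes spanned several orders of magnitude. Levels were compared between genes per kilobase of merged exons, with lengths from GENCODE M21, in the libraries labelled WT. Apoe, the main apolipoprotein of the brain, which astrocytes also make, stood at 964 ± 55.7 CPM per kb (SD, n = 7). Ctsd, a lysosomal protease of most cell types, followed at 147 ± 7.33 CPM per kb. The protease Ctss came next at 34.3 ± 2.28 CPM per kb. The complement genes C1qa and C1qb were at 26.7 ± 2.58 and 24.3 ± 1.60 CPM per kb, neighbours that did not differ beyond their spread. Csf1r and C1qc also lay together, at 12.3 ± 0.742 and 12.2 ± 0.838 CPM per kb. Of the surveying receptors, P2ry12 was at 8.27 ± 0.919, Cx3cr1 at 7.83 ± 0.661 and P2ry13 at 3.11 ± 0.316 CPM per kb. The class II genes H2-Ab1 and H2-Aa, at 0.235 ± 0.124 and 0.126 ± 0.0810 CPM per kb, were near the bottom. Cst7, a cathepsin inhibitor typical of activated microglia, was lowest of the 34 at 0.0537 ± 0.0475 CPM per kb, with at most 5 reads in any library.

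**Figure D1:**
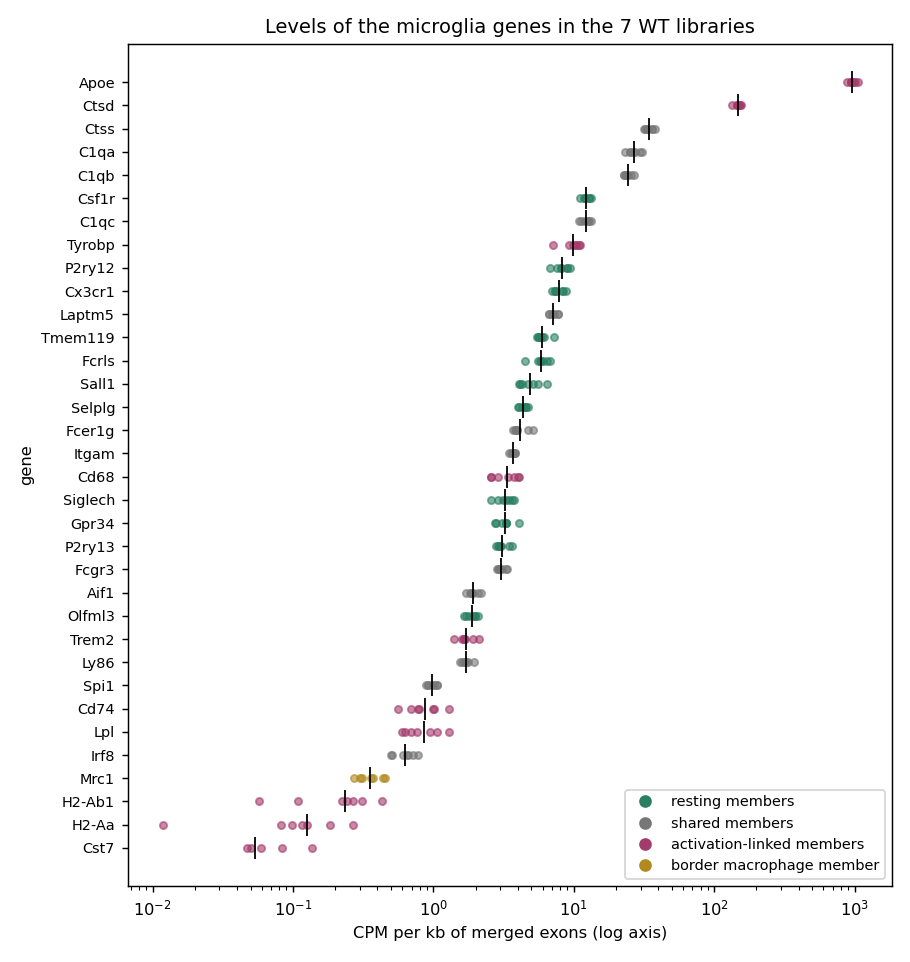
Level of each of the 34 microglia genes in the 7 libraries labelled WT, in CPM per kb of merged exons on a log axis. Dots are libraries, black bars are means, colours are classes, and libraries at 0 are not drawn; Apoe at 964 lies at the top and Cst7 at 0.0537 at the bottom.

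Most microglia genes were slightly higher in the libraries labelled cKO, and 4 passed the test. Fcrls and Olfml3, of resting microglia, and the shared genes Ctss and Fcgr3 rose, with ratios of mean CPM from 1.19 to 1.34. No activation-linked gene passed, and no member passed as lower. The test was limma on log2(CPM + 1) over the 15359 genes whose mean reached 1 CPM, with a threshold of 0.05 on the Benjamini-Hochberg adjusted p-value. It covered 31 members; Cst7, H2-Aa and H2-Ab1 were under the minimum. The 4 of 31 (12.9%) stand beside 14.1% of all tested genes that passed in either direction, a share near the background. By direction, 6.54% of all tested genes passed as higher and 7.60% as lower. The median log2 fold change of the 31 was 0.12, against 0.0092 over all tested genes, and 28 of them (90.3%) were positive, against 52.5% of all. With the mean levels of astrocyte, oligodendrocyte and neuron markers as covariates, 14 of the 31 were positive. Without the 4 libraries that stood apart, which leaves 5 labelled WT and 3 labelled cKO, 1 member passed, Ctss (limma adjusted p-value 0.0347), beside 10.3% of all tested genes, and 25 of 31 were positive. In that fit Fcrls, Olfml3 and Fcgr3 had log2 fold changes of 0.38, 0.28 and 0.22, with limma adjusted p-values of 0.0768, 0.0911 and 0.116. The ranges of the 2 groups overlapped in every one of the 31, while over all tested genes they separated as higher in 3.52% and in either direction in 6.73%.

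**Figure D2:**
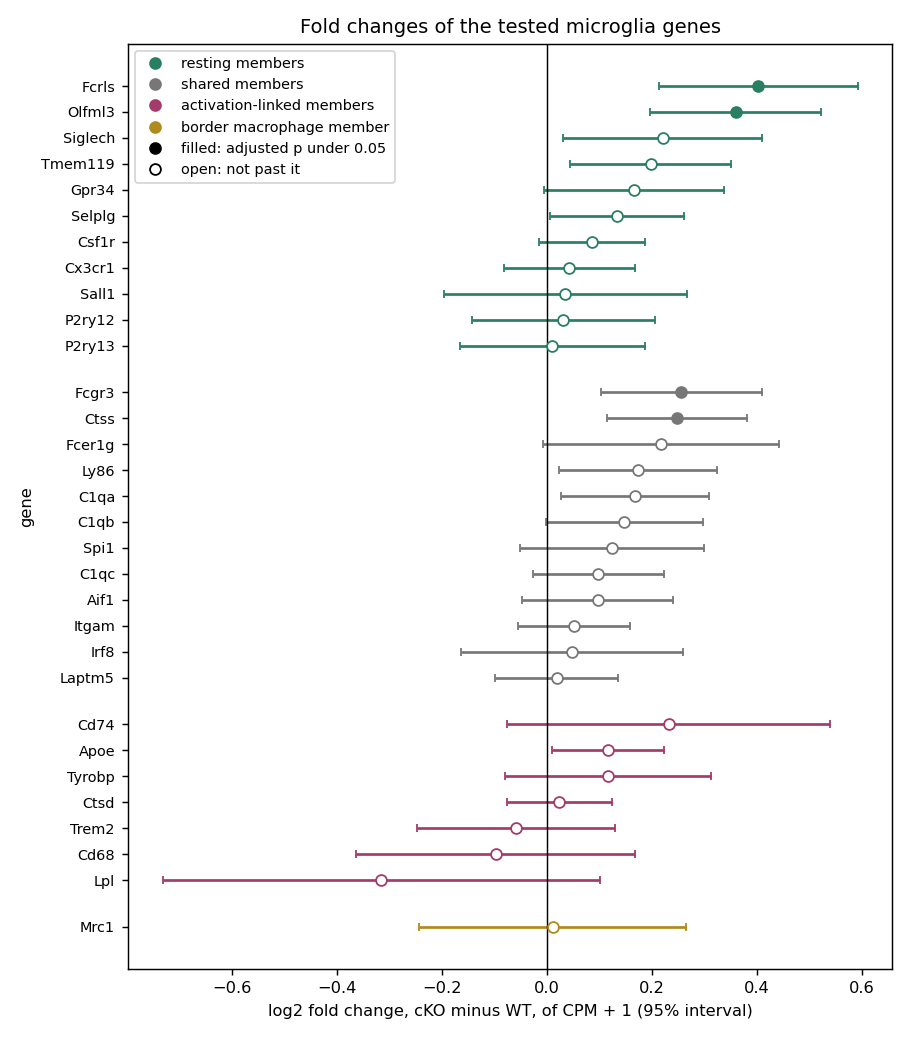
limma log2 fold changes on the log2(CPM + 1) scale, cKO minus WT, of the 31 tested microglia genes with 95% intervals, grouped and coloured by class. Filled points had an adjusted p-value under 0.05 (Fcrls, Olfml3, Fcgr3 and Ctss); the points of all 11 resting and 12 shared genes lie right of 0.

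The promoters of the 4 genes that rose are shown because PU.1, a factor of the ETS family, is the common regulator of myeloid genes. The sequences are RefSeq windows of GRCm38.p6 from 250 bases before to 50 after the listed start, 5′ to 3′ on the gene's strand. Capitals mark matches on either strand to AGGAAG (an ETS core), to GAGGAAGT (a PU.1 word that contains this core) and to GAAANNGAA (an interferon regulatory factor word). Fcrls is at chr3:87263475-87263774 and Olfml3 at chr3:103737952-103738251, both on the minus strand. Ctss is at chr3:95526536-95526835 on the plus strand, and Fcgr3 at chr1:171059354-171059653 on the minus strand, the first of its 2 listed starts.
Fcrls: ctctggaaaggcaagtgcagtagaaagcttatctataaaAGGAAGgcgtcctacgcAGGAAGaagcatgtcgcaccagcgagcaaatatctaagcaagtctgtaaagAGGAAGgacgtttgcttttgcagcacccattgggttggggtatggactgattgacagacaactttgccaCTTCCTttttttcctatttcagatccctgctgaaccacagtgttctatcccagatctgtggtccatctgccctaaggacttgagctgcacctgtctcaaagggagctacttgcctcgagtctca
Olfml3: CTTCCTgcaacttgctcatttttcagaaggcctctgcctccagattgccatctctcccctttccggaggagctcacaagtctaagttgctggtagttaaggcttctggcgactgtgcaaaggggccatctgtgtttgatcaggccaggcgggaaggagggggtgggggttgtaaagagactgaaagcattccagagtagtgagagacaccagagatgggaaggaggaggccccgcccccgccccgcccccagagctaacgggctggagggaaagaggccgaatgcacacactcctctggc
Ctss: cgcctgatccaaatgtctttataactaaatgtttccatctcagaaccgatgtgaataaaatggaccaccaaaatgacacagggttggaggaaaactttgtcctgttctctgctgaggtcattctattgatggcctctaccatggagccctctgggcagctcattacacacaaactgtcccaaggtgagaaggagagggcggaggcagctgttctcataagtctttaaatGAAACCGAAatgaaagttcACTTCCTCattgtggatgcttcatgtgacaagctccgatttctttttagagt
Fcgr3: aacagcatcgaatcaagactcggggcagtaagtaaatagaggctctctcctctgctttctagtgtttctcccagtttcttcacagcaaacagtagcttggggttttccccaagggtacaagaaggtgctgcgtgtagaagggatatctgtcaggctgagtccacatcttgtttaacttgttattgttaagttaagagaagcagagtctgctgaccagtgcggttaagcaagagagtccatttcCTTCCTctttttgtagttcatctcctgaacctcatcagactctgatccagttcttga

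The Fcrls window held 4 matches to AGGAAG, and the Olfml3 and Fcgr3 windows 1 each. In Ctss the PU.1 word ran from position 249 to 256 of the window, across the start of transcription, and the interferon regulatory factor word from 230 to 238. Windows were used for 24 of the 34 members. AGGAAG occurred in 17 of them (70.8%), against 38.4% of 27025 genes with a window. GAGGAAGT occurred in Ctss and C1qc (8.33%), against 3.69% of all. GAAANNGAA occurred in 4, Aif1, Apoe, Ctss and Ly86 (16.7%), against 9.76% of all. A match describes letters in a window and not binding.

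Fcrls is an Fc receptor-like gene that marks resting microglia against blood monocytes. In the libraries labelled WT its lowest, median and highest values were 10.5, 13.7 and 15.9 CPM. In cKO 8, 9, 12, 13 and 14 it was at 20.4, 17.8, 17.9, 19.6 and 15.8 CPM. All of these but cKO 14 lay above every library labelled WT. The means were 13.6 ± 1.69 (SD, n = 7) and 18.3 ± 1.77 CPM (SD, n = 5). limma gave a log2 fold change of 0.40 (adjusted p-value 0.0124, SE 0.09), and a two-sided exact permutation test p = 0.00379.

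Olfml3 encodes an olfactomedin-like secreted glycoprotein. It ran from 10.2 through a median of 11.7 to 12.7 CPM in the libraries labelled WT and was at 16.6, 14.3, 16.1, 16.1 and 12.5 CPM in cKO 8, 9, 12, 13 and 14. Again cKO 14 alone fell inside the WT range. On means of 11.5 ± 0.921 (SD, n = 7) and 15.1 ± 1.69 CPM (SD, n = 5), limma estimated a log2 fold change of 0.36 (adjusted p-value 0.0106, SE 0.08; exact permutation p = 0.00253). Fcrls and Olfml3 passed in all 12 fits that each left out 1 library.

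Ctss encodes cathepsin S, the lysosomal protease that trims the invariant chain in antigen presentation. It ranged from 43.1 to 51.3 CPM with a median of 45.2 in the libraries labelled WT. In cKO 8, 9, 12, 13 and 14 it was at 51.7, 50.6, 53.3, 63.1 and 59.0 CPM, with cKO 9 alone inside the WT range. On means of 46.6 ± 3.10 (SD, n = 7) and 55.5 ± 5.32 CPM (SD, n = 5), limma estimated a log2 fold change of 0.25 (adjusted p-value 0.0209, SE 0.06; exact permutation p = 0.00505). Without cKO 14 the limma adjusted p-value of Ctss was 0.0524.

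Fcgr3 encodes a low-affinity receptor for immunoglobulin G that signals through Fcer1g. It ran from 4.92 through 5.22 to 5.77 CPM in the libraries labelled WT and was at 5.50, 6.08, 7.18, 7.03 and 6.92 CPM in cKO 8, 9, 12, 13 and 14. Here cKO 8 fell inside the WT range. On means of 5.30 ± 0.323 (SD, n = 7) and 6.54 ± 0.725 CPM (SD, n = 5), limma estimated a log2 fold change of 0.26 (adjusted p-value 0.0312, SE 0.07; exact permutation p = 0.00379). The call was lost in 7 of 12 fits that left out 1 library (WT 1, WT 6, WT 7, WT 11, cKO 12, cKO 13 or cKO 14), with limma adjusted p-values up to 0.0703. Fcgr3 has relatives of similar sequence, so its share of reads is uncertain. Its relative Fcgr2b, with means of 1.60 and 2.31 CPM, had a limma log2 fold change of 0.34 (adjusted p-value 0.0773).

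In the authors' deposited table the same direction was given for these 4, with log2 fold changes of 0.42 for Fcrls, 0.39 for Olfml3, 0.25 for Ctss and 0.30 for Fcgr3. Its FDR values were 0.00260 for Fcrls, 0.00310 for Olfml3, 0.0214 for Ctss and 0.0911 for Fcgr3. The authors' deposited table thus has Fcrls, Olfml3 and Ctss under an FDR of 0.05, beside 4.94% of all its 32494 genes.

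**Figure D3:**
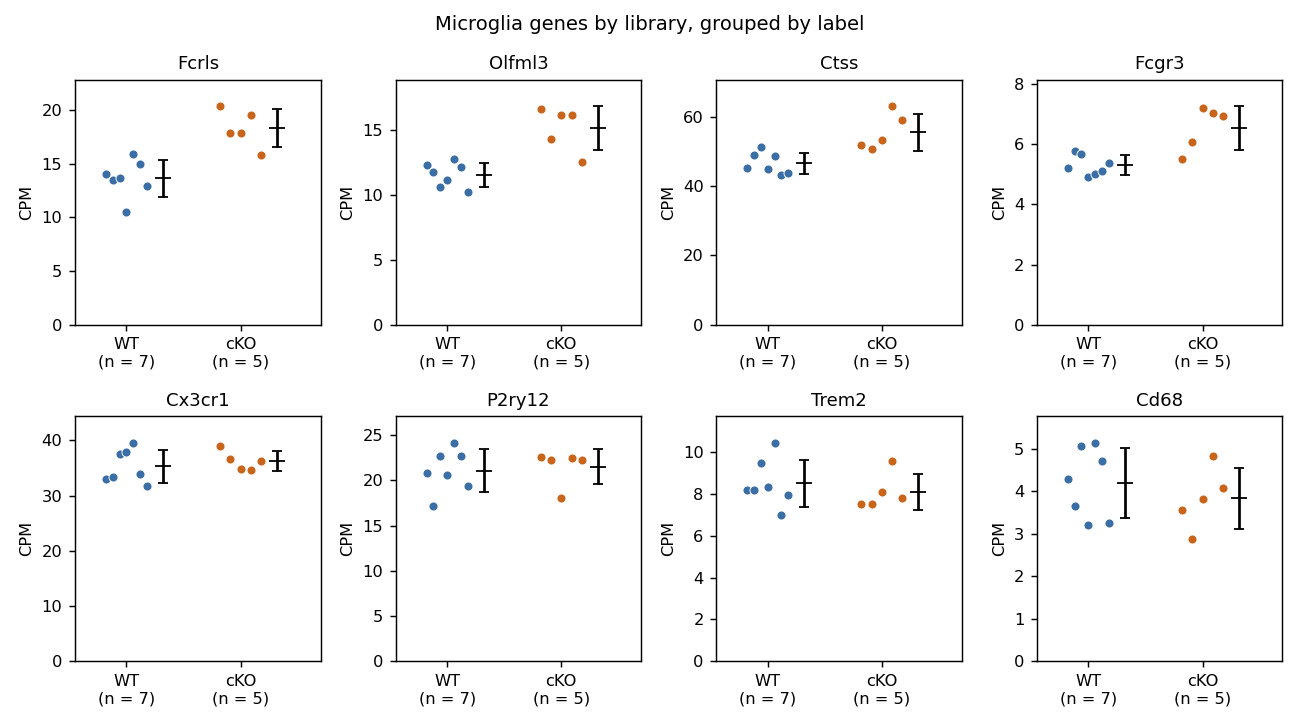
CPM of 8 microglia genes in each library (dots), by label, with the mean and SD beside them. In the upper row (Fcrls, Olfml3, Ctss, Fcgr3) 4 of the 5 libraries labelled cKO lie above all 7 labelled WT; in the lower row (Cx3cr1, P2ry12, Trem2, Cd68), which did not pass the test, no library labelled cKO does.

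Of the other 9 resting genes, all with positive log2 fold changes, the surveying receptors and Sall1 had the smallest. Cx3cr1, which binds the neuronal chemokine fractalkine, ranged from 31.8 to 39.6 CPM with a median of 33.9 in the libraries labelled WT. It was at 39.0, 36.6, 34.8, 34.7 and 36.3 CPM in cKO 8, 9, 12, 13 and 14, all inside the WT range, and the 95% interval of its log2 fold change was -0.08 to 0.17. P2ry12, the ADP receptor that guides microglial processes, ran from 17.2 through 20.8 to 24.1 CPM in the libraries labelled WT. It was at 22.6, 22.2, 18.1, 22.5 and 22.2 CPM in cKO 8, 9, 12, 13 and 14, again all inside the WT range, with an interval of -0.14 to 0.21. P2ry13, a related ADP receptor, had means of 7.86 and 7.93 CPM and an interval of -0.17 to 0.19. Sall1, the transcription factor that sets microglial identity, had means of 25.8 and 26.3 CPM and an interval of -0.20 to 0.27.

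The remaining resting genes had larger differences that did not pass. Tmem119, a surface protein used to tell microglia from other macrophages, ran from 12.6 through 13.3 to 16.7 CPM in the libraries labelled WT. It was at 16.1, 16.0, 14.97, 14.6 and 18.1 CPM in cKO 8, 9, 12, 13 and 14, so that WT 7 alone of its group reached the cKO range, and its limma log2 fold change was 0.20 (adjusted p-value 0.0781). Without WT 7 the limma adjusted p-value of Tmem119 was 0.0261. Siglech, a sialic acid-binding lectin, had means of 10.98 and 12.9 CPM, and 4 of 5 libraries labelled cKO lay above the WT maximum of 12.6 CPM (log2 fold change 0.22, limma adjusted p-value 0.109). Gpr34, a receptor for lysophosphatidylserine, had a limma adjusted p-value of 0.174, and of 0.0436 without WT 5. Selplg, the ligand of P-selectin, had means of 18.7 and 20.7 CPM. Csf1r itself had means of 71.2 and 75.6 CPM and a limma log2 fold change of 0.09 (adjusted p-value 0.230); 15.1% of its exon bases overlap Hmgxb3 on the opposite strand, so its value is uncertain where strand was not used.

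The other 10 shared genes also had positive log2 fold changes, from 0.02 to 0.22. C1qa, C1qb and C1qc encode the chains of C1q, which starts the classical complement pathway and tags synapses for removal. C1qa ran from 24.0 through 27.6 to 31.7 CPM in the libraries labelled WT and was at 31.7, 30.7, 28.8, 33.6 and 31.5 CPM in cKO 8, 9, 12, 13 and 14 (log2 fold change 0.17, limma adjusted p-value 0.101). C1qb and C1qc had log2 fold changes of 0.15 and 0.10. C1qb was lowest of all 12 libraries in cKO 8, at 24.3 CPM, and without cKO 8 its limma adjusted p-value was 0.0378. Fcer1g, the signalling chain of Fc receptors, had the largest difference among those that did not pass, with means of 3.65 and 4.43 CPM. Ly86, a partner of a Toll-like receptor homologue, had means of 6.18 and 7.11 CPM. The transcription factor Spi1 had means of 2.62 and 2.96 CPM and Irf8 of 4.46 and 4.61 CPM. Aif1, the microglial stain IBA1, had means of 2.95 and 3.22 CPM, and the lysosomal protein Laptm5 of 27.1 and 27.5 CPM. Itgam, the integrin chain CD11b, had means of 18.4 and 19.2 CPM, and 68.7% of its exon bases are shared with the same-strand model Gm49368, so its value is uncertain.

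None of the 7 tested activation-linked genes passed in limma, in edgeR or in DESeq2, and 1, Apoe, had an unadjusted limma p-value under 0.05. Trem2, the lipid receptor that drives the activated state, ran from 6.98 through 8.18 to 10.4 CPM in the libraries labelled WT. It was at 7.51, 7.50, 8.07, 9.54 and 7.81 CPM in cKO 8, 9, 12, 13 and 14, all inside the WT range, and the 95% interval of its log2 fold change was -0.25 to 0.13. Its signalling partner Tyrobp had means of 6.56 and 7.15 CPM and an interval of -0.08 to 0.31. Cd68, a lysosomal membrane protein, had means of 4.19 ± 0.826 (SD, n = 7) and 3.84 ± 0.714 CPM (SD, n = 5), with an interval of -0.36 to 0.17. Lpl, a lipase that neurons also express, had the largest SD relative to its mean among the tested members in the libraries labelled WT (29.7%). Its values there ran from 6.31 to 13.5 CPM, and the interval of its log2 fold change was -0.73 to 0.10.

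Apoe had means of 2062 and 2232 CPM, a log2 fold change of 0.12 (interval 0.01 to 0.22, limma adjusted p-value 0.127). Ctsd had means of 346 and 352 CPM and an interval of -0.08 to 0.12; 34.4% of its exon bases are shared with the same-strand model Gm49369, so its value is uncertain. Cd74, the invariant chain of class II molecules, had 21 to 149 reads, means of 1.46 and 1.91 CPM and an interval of -0.08 to 0.54. H2-Aa ranged from 0.0448 to 1.02 CPM in the libraries labelled WT and from 0.168 to 0.653 CPM in those labelled cKO, and H2-Ab1 from 0.148 to 1.10 and from 0.355 to 0.700 CPM. Cst7 was at 0 in WT 7, WT 15, cKO 8, cKO 9 and cKO 14. Two-sided exact permutation tests gave p = 0.884 for H2-Aa, 0.539 for H2-Ab1 and 0.684 for Cst7. Mrc1, the mannose receptor of border macrophages, had means of 2.27 and 2.30 CPM and an interval of -0.24 to 0.27.

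Resting and activation-linked genes were compared within each library by their mean log2(CPM + 1). With SDs over 7 WT and 5 cKO libraries, the resting mean was 4.17 ± 0.0794 under the WT label and 4.32 ± 0.0458 under the cKO label. Its ranges, 4.08 to 4.28 and 4.26 to 4.37, overlapped, with WT 5 and WT 7 above cKO 12. The shared mean was 3.57 ± 0.0485 and 3.71 ± 0.0428, and its ranges, 3.50 to 3.65 and 3.66 to 3.77, did not overlap. The activation-linked mean was 4.64 ± 0.112 and 4.65 ± 0.0667. The resting mean minus the activation-linked mean was -0.47 ± 0.0588 in the libraries labelled WT, from -0.55 to -0.41, and -0.32 ± 0.0646 in those labelled cKO, from -0.39 to -0.22. These ranges did not overlap, and the groups differed by 0.15, or by 0.11 without Apoe, Ctsd and Lpl. No p-value is given for these means, since the genes were chosen with results of these data known. By class, the median log2 fold change was 0.13 in resting, 0.14 in shared and 0.02 in activation-linked genes. Lists of further genes of each kind outside the 34 had the opposite order, with 0.03 over 23 other resting and 0.10 over 17 other activation-linked genes. The values are from bulk tissue, and which cells gave the reads of these further genes was not tested.

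**Figure D4:**
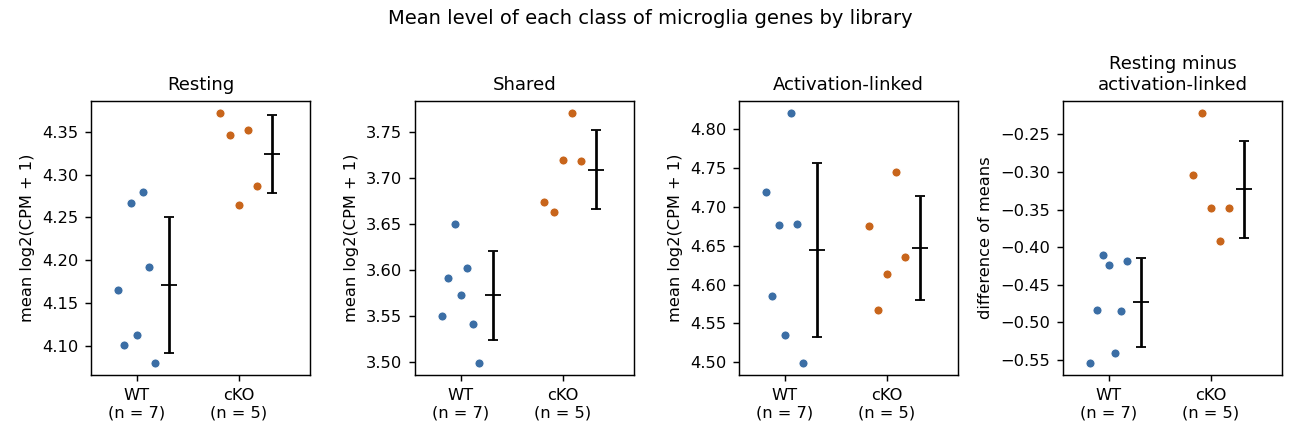
Mean log2(CPM + 1) of the resting, shared and activation-linked genes in each library, and the resting mean minus the activation-linked mean, by label; dots are libraries, bars the mean and SD. The shared means and the differences do not overlap between labels, and the activation-linked means, 4.64 and 4.65, lie over each other.

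Libraries differed across the whole set. WT 15 was above the median of the 12 libraries in 2 of 31 tested members and lowest in 10. WT 5 and WT 7 were above it in 21 and 19, more than cKO 12 in 17 and cKO 14 in 18. cKO 13 was above it in 27 and highest in 8.

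Some markers of other cells moved with the labels too. Of 12 neuron markers Map2, Stmn2 and Elavl4 rose (25%, beside 6.54% of all tested genes as higher), 9 did not pass, and 3 of those had negative log2 fold changes. Stmn2 was not past without WT 1 and Elavl4 not without cKO 9 or cKO 14 (limma adjusted p-values up to 0.0518 and 0.0533). The mean log2 level of the 12 was 8.76 to 8.87 in the libraries labelled cKO and 8.59 to 8.73 in those labelled WT. Of 10 thalamic neuron markers 5 fell (50%, beside 7.60% of all as lower), with a median log2 fold change of -0.50. Among these, Plekhg1 passed in 3 of 12 fits without 1 library (WT 6, WT 15 or cKO 14) and Ntng1 in 8, with limma adjusted p-values up to 0.102 and 0.0618; Ntng1 lost its call without WT 7, cKO 8, cKO 12 or cKO 13. Sim1, a transcription factor of the paraventricular hypothalamus, was the 1 of 11 tested hypothalamic markers that passed, as higher; without cKO 9 or cKO 14 it did not (limma adjusted p-values up to 0.0518). Without the 4 libraries that stood apart, 7 neuron markers and the hypothalamic markers Sim1, Otp and Six3 passed as higher, and 1 thalamic (Prkcd), 1 endothelial (Slco1a4) and 1 meningeal marker (Col1a2) as lower. In limma no marker passed of 10 astrocyte genes (median 0.14, 1 with an unadjusted p-value under 0.05), 10 oligodendrocyte genes (median 0.05), 10 endothelial and mural genes (median 0.08), 8 meningeal genes (median -0.02) or 6 red blood cell genes (median 0.18), with 0 unadjusted in the last 4 lists and 0 in edgeR and DESeq2. Of 13 border macrophage markers 2 were tested and 0 passed in limma, edgeR or DESeq2 or unadjusted, with summed levels of 14.1 to 18.1 CPM and 10.8 to 16.2 CPM. The part of these marker differences in the values of the microglia genes was not tested. With the thalamic marker mean as a covariate, Fcrls and Csf1r were the members past the limma threshold; with astrocyte, oligodendrocyte and neuron means as covariates, 0 members were. In that last fit the log2 fold changes were 0.43 (SE 0.20) for Olfml3, 0.24 (SE 0.17) for Fcgr3, 0.12 (SE 0.19) for Fcrls and -0.03 (SE 0.12) for Ctss, each with a larger SE than without covariates.

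Of 15 tested signals to microglia and their receptors, Il34 and Cd200 rose, Tgfb2 and Gas6 fell, and 11 did not pass. Without the 4 libraries that stood apart, Il34 and Cd200 did not pass (limma adjusted p-values 0.0781 and 0.0644). The 2 that rose are 13.3% of the list, beside 6.54% of all tested genes that passed as higher, and 7.60% of all passed as lower. Il34, a neuronal ligand of Csf1r, ran from 22.1 through 24.2 to 28.6 CPM in the libraries labelled WT and was at 30.3, 28.6, 29.2, 28.8 and 28.2 CPM in cKO 8, 9, 12, 13 and 14 (limma log2 fold change 0.26, SE 0.06, adjusted p-value 0.0142). WT 6 was the only library labelled WT inside the cKO range. Csf1, the other ligand, had means of 31.1 and 28.0 CPM and a limma log2 fold change of -0.15 (adjusted p-value 0.0508).

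Tgfb2, a ligand of the growth factor family that maintains microglial identity, ran from 14.3 through 16.4 to 18.9 CPM in the libraries labelled WT. It was at 11.8, 12.7, 14.1, 12.8 and 13.3 CPM in cKO 8, 9, 12, 13 and 14, all below the WT range (limma log2 fold change -0.33, SE 0.07, adjusted p-value 0.0103). Tgfb1 had means of 4.75 and 4.93 CPM, and the receptors Tgfbr1 and Tgfbr2 of 29.6 and 29.9 and of 19.1 and 19.4 CPM; none of these passed. Gas6, a bridging ligand of the phagocytic receptors Axl and Mertk, had means of 122 ± 2.33 (SD, n = 7) and 108 ± 9.31 CPM (SD, n = 5), and limma gave a log2 fold change of -0.19 (adjusted p-value 0.0203, and 0.0521 without cKO 9). Cd200, a neuronal ligand that restrains myeloid cells, had means of 192 ± 13.7 and 220 ± 12.6 CPM, a limma log2 fold change of 0.19 (adjusted p-value 0.0294). Cd200 lost its call in 7 of 12 fits without 1 library (WT 1, 4, 7 or 11, or cKO 8, 9 or 14), with limma adjusted p-values up to 0.0675. Cx3cl1, the ligand of Cx3cr1, had means of 142 and 131 CPM (limma adjusted p-value 0.214).

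**Figure D5:**
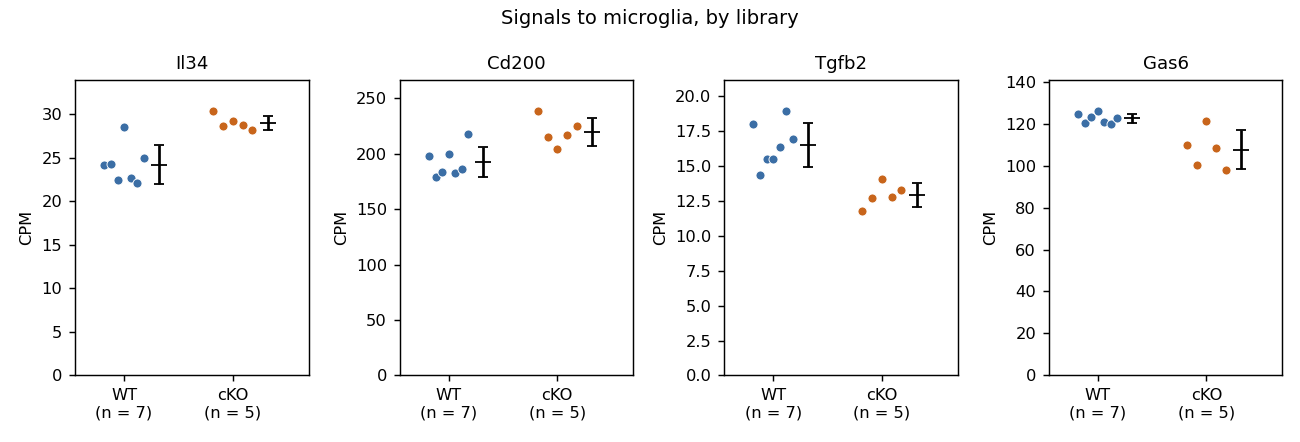
CPM of Il34, Cd200, Tgfb2 and Gas6 in each library (dots), by label, with the mean and SD beside them. Il34 and Cd200 are higher and Tgfb2 and Gas6 lower in the libraries labelled cKO, and for Tgfb2 all 5 lie below all 7 labelled WT.

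Further microglia genes outside the 34 were mostly not past the threshold. Of 23 other resting genes 14 had positive and 9 negative log2 fold changes. Of these 23, 1 passed (4.35%, below the 6.54% of all tested genes that passed as higher), the fructose transporter Slc2a5, with means of 5.13 and 6.30 CPM (limma log2 fold change 0.26, adjusted p-value 0.0489); it passed in 1 of 12 fits without 1 library, the one without WT 15. Without the 4 libraries that stood apart Slc2a5 did not pass (limma adjusted p-value 0.238), and Mertk, a phagocytic receptor that astrocytes also express, passed as lower (limma log2 fold change -0.34, adjusted p-value 0.00999). Of 17 other activation-linked genes 0 passed in limma, 1 in edgeR and 2 in DESeq2, with 4 under an unadjusted limma p-value of 0.05 and 12 positive; Gpnmb, Itgax and Clec7a had means under 1 CPM. Lyz2, a lysozyme of myeloid cells, had means of 3.49 and 5.00 CPM (limma adjusted p-value 0.0749).

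Of 22 inflammatory signalling genes, 9 were tested and 0 passed in limma, edgeR or DESeq2 or unadjusted, and Tnf, Il1b and Il6 had at most 4 reads in any library. No complement gene outside C1q passed among 11 tested in limma, edgeR or DESeq2, and 0 had an unadjusted p-value under 0.05. Of 5 tested class II presentation genes 0 passed in those tools and 1 unadjusted. Of 15 Fc receptor and phagocytosis genes 1 rose (6.67%, beside 6.54% of all tested genes), Grn, the lysosomal regulator progranulin, with means of 58.3 ± 4.26 (SD, n = 7) and 67.5 ± 4.36 CPM (SD, n = 5), and limma gave a log2 fold change of 0.21 (adjusted p-value 0.0267). Without WT 1, cKO 8 or cKO 9 the limma adjusted p-value of Grn was up to 0.0655.

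Of 21 tested myeloid transcription factors outside the 34, 2 rose and 2 fell, and 17 did not pass. The 4 are 19% of the list, beside 14.1% of all tested genes. The median log2 fold change was -0.12, with 6 of 21 positive. Etv5, an ETS family factor also expressed in neurons and astrocytes, rose with separate ranges, on means of 21.9 ± 1.92 (SD, n = 7) and 27.4 ± 1.30 CPM (SD, n = 5) (limma log2 fold change 0.32, adjusted p-value 0.00798). Irf7, an interferon regulatory factor, rose from 1.94 to 2.95 CPM (limma log2 fold change 0.42, adjusted p-value 0.0343) and lost its call in 7 of 12 fits without 1 library (WT 1, 4, 5, 11 or 15, or cKO 12 or 13). Klf4 fell from 7.94 to 5.71 CPM (limma log2 fold change -0.41, adjusted p-value 0.0263; not past without cKO 8 or cKO 14). Bhlhe40 fell from 75.6 to 58.4 CPM (limma log2 fold change -0.36, adjusted p-value 0.0246; not past without cKO 8, cKO 12 or cKO 13). Both are also expressed by other brain cells. Without the 4 libraries that stood apart Irf7 and Bhlhe40 did not pass (limma adjusted p-values 0.297 and 0.149), and Smad3 passed as lower (limma adjusted p-value 0.0214).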

How the data were processed

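Hypothalamic messenger RNA was sequenced in 12 libraries from male mice, 7 labelled WT and 5 labelled cKO, with column-purified RNA and the NEBNext Ultra II kit, per the labels' protocols. The submitters' processing notes name bcl2fastq, FastQC 0.11.9, STAR 2.7.9a, SAMtools, Subread and featureCounts; roles, strand setting, build and annotation are not given in the sources used here. The authors deposited normalized CPM per gene, and the output of their own test, with log2 fold changes, p-values and FDR. Within a library every deposited CPM was a whole multiple of 1 step (100%, tolerance 0.001), which gave whole reads and depth.

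limma 3.58.1 (R 4.3.3; lmFit, eBayes with trend) was fitted without covariates on log2(CPM + 1) for genes whose mean reached 1 CPM, with Benjamini-Hochberg adjustment; this scale understates changes of low genes. Exact permutation tests used all 792 assignments of 12 libraries to 7 and 5 (smallest p 0.00126). Alternatives used other pseudocounts, minimums, scalings, library weights, marker means as covariates, the count tests edgeR 4.0.16 and DESeq2 1.42.0 on those reads, 1 library left out and, chosen after the data were seen, the 4 libraries with the lowest hypothalamic and highest oligodendrocyte marker means left out. The fit was tested on simulated data. Libraries within a group differed beyond sampling noise (chi-square 3.04 to 26.3 per degree of freedom). Nothing but the numbers in the titles says that libraries are separate mice, so p-values measure the spread between these samples.

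Members, classes and lists were chosen with earlier results of these data known. All members are named, and from the other lists up to 4 genes past the threshold; Lyz2, Fcgr2b, Csf1, Cx3cl1, Tgfb1, Tgfbr1, Tgfbr2, Tnf, Il1b, Il6, Gpnmb, Itgax, Clec7a, Fezf1, Otp, Six3, Slco1a4, Col1a2, Mertk, Smad3, Mbp and Rax were named after their values were seen.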

Additional observations from a re-analysis of the deposited data

Results flagged for a closer look

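In 4 of 76 groups of values (each member, the class means and their difference, by label), 1 library stood apart from the rest of its group by Dixon's criterion, and chance would give 3.8. P2ry12 was 18.05 CPM in cKO 12 (387 reads), with the next library of its group at 22.19 CPM. Tmem119 was 16.66 CPM in WT 7, with the next at 14.21 CPM. Gpr34 was 8.464 CPM in WT 5, with the next at 6.923 CPM. Trem2 was 9.543 CPM in cKO 13, with the next at 8.07 CPM.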

How the results depend on the processing

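Of 675 planned refits of single members, 608 kept direction and side of the threshold, 15 lost the call, 12 gained it and 40 changed sign, of which only Ctss had passed the test. The same 4 members passed with a pseudocount of 0.1, a minimum of 5 CPM, median centring, quantile normalization, edgeR and DESeq2. With arrayWeights, genes past the threshold numbered 5126 and members 12 (6 resting, 5 shared, 1 activation-linked), with the thalamic covariate 575 genes, 2 members and 0 shared genes, and with all genes above 0, 1 shared gene. With astrocyte, oligodendrocyte and neuron covariates 87 genes and 0 members passed (0 resting, 0 shared), and the median log2 fold changes were -0.07492 in resting, 0.03226 in shared and -0.2335 in activation-linked genes; the neuron mean did not overlap between labels. There the log2 fold changes of Ctss (-0.02571), Gas6 (0.03364), Stmn2 (-0.08166) and Elavl4 (-0.1012), which had passed, changed sign, as did Plekhg1 (0.02694) with the thalamic covariate. Of members that had not passed, so did Cx3cr1 (-0.07492), P2ry12 (-0.344), P2ry13 (-0.275), Tmem119 (-0.0837), Csf1r (-0.0861), Gpr34 (-0.09586), C1qa (-0.1592), C1qb (-0.006595), Itgam (-0.1176), Ly86 (-0.09473), Tyrobp (-0.2335), Ctsd (-0.01386) and Mrc1 (-0.3833) with the 3 covariates. Sall1 (-0.07114), Cd68 (0.09738), Ctsd (-0.02538), Lpl (0.1101) and Mrc1 (-0.001329) did so with the thalamic covariate, Irf8 (-0.01752), Cd74 (-0.1403) and Mrc1 (-0.1856) with arrayWeights, and Mrc1 (-0.0006875) in DESeq2. The cause was not tested.

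Leaving out 1 library gave log2 fold changes on both sides of 0 for P2ry12 (-0.01378 to 0.09013), P2ry13 (-0.02643 to 0.06972), Sall1 (-0.02103 to 0.1004), Laptm5 (-0.01174 to 0.04666), Ctsd (-0.01061 to 0.04655) and Mrc1 (-0.08164 to 0.07022). It gave 1158 (without WT 1) to 2302 genes, 2 (without cKO 14) to 5 members and 0 (without cKO 14) to 3 shared genes past the threshold, where the full set gave 2172, 4 and 2. The median log2 fold change of activation-linked members was negative with arrayWeights (-0.07266) and without WT 11 (-0.0001184) or cKO 13 (-0.01061). Median centring gave 1377 higher and 1054 lower calls (56.6% higher, against 46.2%), the thalamic covariate 31.7% and the 3 covariates 4.6%. A minimum of 5 CPM gave no value for members below it. No paired analysis was possible because the groups share no animal number. In the fit without WT 4, WT 5, cKO 12 and cKO 13, chosen after the data were seen, 1 member passed (0 resting, 1 shared), and the log2 fold changes of Irf8 (-0.01481), Ctsd (-0.006329) and Mrc1 (-0.1267), which had not passed, changed sign. The median log2 fold change of activation-linked members was -0.006329 there. Counts of at most 76 reads limit the precision of Cst7, H2-Aa and H2-Ab1.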

Other observations

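Among the tested members, 5 lie on chromosome 3 (P2ry12, P2ry13, Fcrls, Ctss and Olfml3), and 3 of them are among the 4 that passed. Of 215 tested genes from Fcrls to Olfml3, 27 passed (12.6%), 16 as higher (7.44%). On the whole chromosome 92 of 698 passed (13.2%).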
